A study of Mus musculus with 4 samples.

Results

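The small leucine-rich proteoglycans are secreted matrix proteins, and 7 of their genes were followed here through RNA-seq of 4 stable 3T3-L1 lines. They are Dcn (decorin), Bgn (biglycan) and Aspn (asporin) of class I, Lum (lumican), Fmod (fibromodulin) and Omd (osteomodulin) of class II, and Ogn (osteoglycin) of class III. The genes were selected by symbol, and each of the 7 matched 1 row of the deposited tables, out of 13085 genes in all. The family was selected with its values in both comparisons already known, so every count and fold change of these genes is a description. With 1 sample of each line there is no replicate check, and no value carries a test or an error.

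Each of these proteins has a core of leucine-rich repeats, most carry glycosaminoglycan chains of the chondroitin, dermatan or keratan sulfate kind, and they are laid down beside collagen. Decorin, lumican and fibromodulin bind collagen fibrils and set their diameter and spacing, and decorin and biglycan also bind TGF-β. Biglycan released from the matrix is a ligand of the Toll-like receptors TLR2 and TLR4. Fibroblasts and preadipocytes make a fibrillar, collagen-rich matrix, which is replaced by a basement-membrane matrix as fat cells mature.

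3T3-L1 is a mouse embryonic fibroblast line that can be turned into fat cells in culture. FLAG cells carried the empty FLAG vector and FLAG-CACUL1 cells overexpressed CACUL1 from it, whereas sh-Luc cells expressed a hairpin against luciferase and sh-CACUL1 cells a hairpin against CACUL1, a cofactor that the study examined as a repressor of PPARγ. All 4 lines were driven to adipogenesis with insulin at 5 μg/ml, dexamethasone at 1 μg/ml, IBMX at 0.5 mM and rosiglitazone at 5 μM, and RNA was taken on day 8. The FLAG vectors were selected with G418 and the hairpin vectors with hygromycin B, and resistant colonies were kept. Whether a line was 1 colony or a pool is not given in the sources used here, so an effect of CACUL1 and a difference between lines cannot be told apart. FLAG-CACUL1 against FLAG is called the overexpression comparison below, and sh-CACUL1 against sh-Luc the depletion comparison.

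On the mouse genome (GRCm38, GENCODE M21) the 7 genes lay at 4 places, and 3 of the genes stood in a row. Aspn (chr13:49544443-49567565), Omd (chr13:49582462-49592822) and Ogn (chr13:49608046-49624501) followed each other on the plus strand of chromosome 13, with gaps of 14897 bases between Aspn and Omd and 15224 bases between Omd and Ogn. Dcn (chr10:97479609-97518143) and Lum (chr10:97565128-97572703) were 46985 bases apart on the plus strand of chromosome 10. Fmod (chr1:134037254-134048277, plus strand) and Bgn (chrX:73483602-73495933, plus strand) stood apart from the other members. The number of exons was 8 in Dcn, Bgn and Aspn, 3 in Lum and Fmod, 4 in Omd and 7 in Ogn. Of stretches of 31 transcript bases, Dcn and Bgn shared 2 and no other pair of members shared any, so that few reads could fit more than 1 member.

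Promoters of the chromosome 13 genes are shown because these neighbours differed in the order of their levels over the 4 lines. Each is the 250 bases before the RefSeq transcript start on GRCm38.p6, plus strand, in lower case, with capitals for every match to 7 short motifs searched on both strands. The TATA box was searched as TATAAA, and the element that PPARγ binds with its partner RXR as AGGTCA. The C/EBP motif was written as TTGCNNAA, the AP-1 motif as TGANTCA and the SMAD motif as CAGAC. For the glucocorticoid receptor AGAACA was used, and for SP1 the GC box GGGCGG. The E-box, searched as CANNTG, is left in lower case.
Aspn, chr13:49544193-49544442: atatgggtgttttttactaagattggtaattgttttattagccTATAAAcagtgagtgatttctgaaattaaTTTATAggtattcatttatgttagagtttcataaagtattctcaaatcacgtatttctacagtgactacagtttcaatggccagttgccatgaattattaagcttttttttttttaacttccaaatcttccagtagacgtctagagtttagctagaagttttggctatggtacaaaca
Omd, chr13:49582212-49582461: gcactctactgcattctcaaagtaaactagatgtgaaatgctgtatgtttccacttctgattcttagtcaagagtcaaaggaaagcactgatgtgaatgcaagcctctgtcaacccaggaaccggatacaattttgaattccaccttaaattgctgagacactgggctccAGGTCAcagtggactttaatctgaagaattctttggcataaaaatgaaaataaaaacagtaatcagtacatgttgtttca
Ogn, chr13:49607765-49608014: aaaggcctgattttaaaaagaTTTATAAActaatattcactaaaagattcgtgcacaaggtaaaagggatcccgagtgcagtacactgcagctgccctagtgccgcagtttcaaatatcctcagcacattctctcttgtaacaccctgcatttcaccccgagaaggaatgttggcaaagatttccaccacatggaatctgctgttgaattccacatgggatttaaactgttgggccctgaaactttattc
The Aspn window held TATAAA with its first base 207 bases before the start and its reverse complement at 178, and 1 E-box at 97. In the Ogn window TATAAA and its reverse complement overlapped, at 227 and 229 bases before the start, and there were 3 E-boxes. Omd had AGGTCA at 80 bases before the start and no other match. Such letters are common, since TATAAA occurred in 12.37% of the 32851 promoters of this length, AGGTCA in 14.02% and CANNTG in 66.22%. GC content was 30.0% for Aspn, 38.4% for Omd and 42.0% for Ogn, against a median of 52.4% over all promoters. Of the other members with an entry, Bgn had 64.4% GC and 3 matches to GGGCGG, a motif in 32.74% of promoters, and 1 to AGAACA, found in 16.08%. Fmod had 51.2% GC, TTGCNNAA at 125 bases before the start (in 9.56% of promoters) and CAGAC at 148 and 195 (in 42.19%). TGANTCA, in 6.75% of promoters, matched in none of these 5 windows. A match is a string of letters and not a binding site.

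Levels are given in FPKM, fragments scaled to transcript length and sequencing depth, which compares genes within a sample. Between samples FPKM is not corrected for a few abundant mRNAs taking up reads. Summed over all genes it ranged from 372148 in sh-CACUL1 to 473584 in FLAG-CACUL1. Fold changes are on the log2(FPKM + 1) scale, so that a change of 1 is 2-fold and low levels give understated changes, and ratios are of the FPKM themselves. Depth, estimated from the steps between low FPKM values, was 14200000 to 14900000 fragments in the FLAG, FLAG-CACUL1 and sh-CACUL1 samples and 23900000 in sh-Luc. Cacul1 itself stood at 9.61 FPKM in FLAG and 11.8 in FLAG-CACUL1, a log2 fold change of 0.27, and at 10.2 in sh-Luc and 5.39 in sh-CACUL1, a change of -0.82. Both changes of the targeted gene had the direction of the label and neither reached 2-fold. Rescaling made both smaller, to 0.17 and -0.36 after quantile normalization and to 0.13 and -0.42 after median-of-ratios scaling. Whether the deposited row counts the transgene is not given in the sources used here, so the value in FLAG-CACUL1 cells may not measure the overexpression.

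Among the class I genes, Dcn differed in opposite directions in the 2 comparisons. Its level was 99.7 FPKM in FLAG cells, 770.0 in FLAG-CACUL1 cells, 106 in sh-Luc cells and 9.60 in sh-CACUL1 cells. The controls were close to each other, overexpressing cells stood far above both and depleted cells far below both. Decorin mRNA was thus 7.73-fold higher upon CACUL1 overexpression, a log2 fold change of 2.94, and 11.01-fold lower upon depletion, a change of -3.33. Of all 13085 genes it had the 21st highest change in the overexpression comparison and the 43rd lowest in the depletion comparison. In bulk RNA fewer cells that express a gene and less of its RNA in each cell cannot be told apart, and this holds for every level given here.

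Biglycan was the most abundant member in every line. Bgn stood at 1703 FPKM in FLAG cells, 4156 in FLAG-CACUL1 cells, 1228 in sh-Luc cells and 822 in sh-CACUL1 cells. It was the 5th most abundant of all genes in FLAG-CACUL1 and the 69th in sh-CACUL1. Its level was 2.44-fold higher with overexpression (log2 fold change 1.29) and 1.49-fold lower with depletion (-0.58, below 2-fold). The order of the lines was that of lumican, with the FLAG-CACUL1 line highest and the sh-CACUL1 line lowest, and over the 4 samples the whole range of Bgn was 5.05-fold.

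Asporin, the third gene of class I, which lacks the glycosaminoglycan attachment site of decorin and biglycan, followed another order. Aspn was at 65.5 FPKM in FLAG cells, 112 in FLAG-CACUL1 cells, 569.6 in sh-Luc cells and 174 in sh-CACUL1 cells. Both hairpin lines were above both FLAG lines. The level was 1.71-fold higher with overexpression (0.76 on the log2 scale, below 2-fold) and 3.28-fold lower with depletion (-1.71), while the controls themselves were 8.69-fold apart.

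In class II, lumican, a keratan sulfate proteoglycan known from cornea and connective tissue, was lowest in the depleted cells. Lum had 10.98 FPKM in FLAG cells, 12.5 in FLAG-CACUL1 cells, 4.80 in sh-Luc cells and 1.07 in sh-CACUL1 cells. The FLAG lines were close to each other and above sh-Luc, and sh-CACUL1 was the lowest. Overexpression gave a ratio of 1.14 (0.17 on the log2 scale) and depletion a level 4.49-fold lower (-1.49). The lowest value stood for about 39.1 fragments by the estimated depth.

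Fibromodulin, a class II relative of lumican, was present in sh-Luc alone at more than 1 FPKM. Fmod was listed at 0.0493 FPKM in FLAG cells, 0.0747 in FLAG-CACUL1 cells, 6.85 in sh-Luc cells and 0.118 in sh-CACUL1 cells. By the estimated depth these values stood for about 2.21, 3.32, 510 and 5.52 fragments, so the FLAG lines were at the limit of detection and no fold between them is given. The log2 fold change in the depletion comparison was -2.81 with a pseudocount of 1 FPKM and -4.99 with 0.1 FPKM, so its size depended on the pseudocount.

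Osteomodulin, also called osteoadherin and known from bone and dentin, was the exception in direction. Omd was measured at 2.17 FPKM in FLAG cells, 6.70 in FLAG-CACUL1 cells, 5.94 in sh-Luc cells and 11.2 in sh-CACUL1 cells. It was higher in each CACUL1 line than in its own control, and the empty FLAG line was the lowest. The level was 3.09-fold higher with overexpression (1.28 on the log2 scale) and 1.89-fold higher with depletion (0.82). The latter was short of 2-fold as deposited and past it under both rescalings tried, with 1.30 after quantile normalization and 1.22 after median-of-ratios scaling.

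Osteoglycin, also called mimecan, had the widest range of the members that were detected in all lines. Ogn stood at 1.23 FPKM in FLAG cells, 24.8 in FLAG-CACUL1 cells, 264 in sh-Luc cells and 5.77 in sh-CACUL1 cells. The sh-Luc line was far above the other 3, and the control FLAG line was the lowest of all. Osteoglycin mRNA was 20.2-fold higher with overexpression (3.53 on the log2 scale, the 10th highest of all genes) and 45.7-fold lower with depletion (-5.29, the 2nd lowest). Between the controls the level was 214-fold lower in FLAG than in sh-Luc, and this log2 fold change of -6.89 was the lowest of all 13085 genes. The value in FLAG stood for about 45.5 fragments and that in sh-Luc for about 16165.

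**Figure D1:**
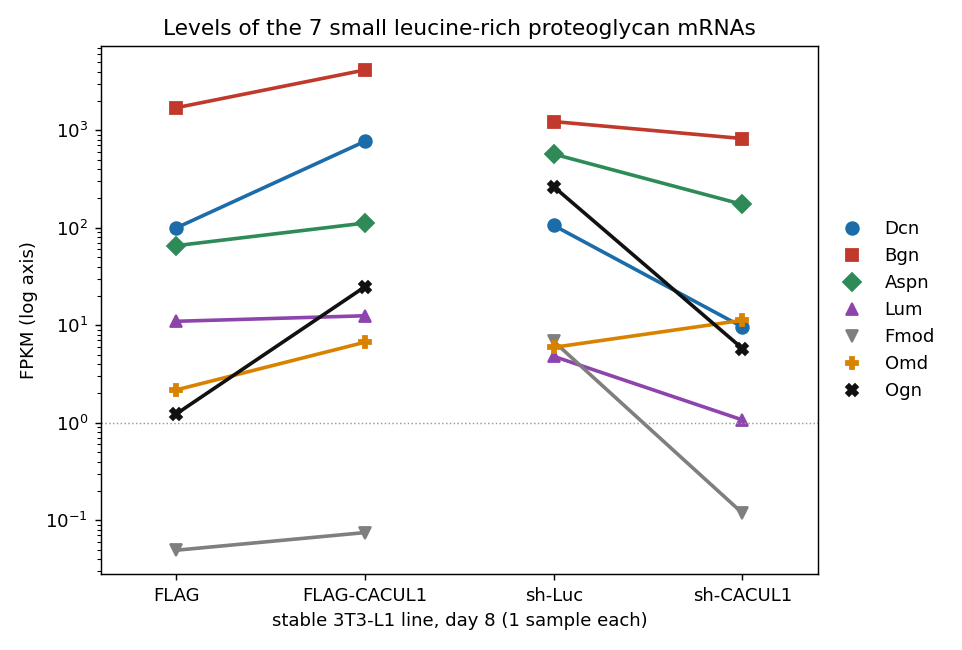
FPKM (log axis) of the 7 proteoglycan mRNAs in the 4 lines, with 1 point per sample, a line joining each CACUL1 line to the control with its own vector, and a dotted line at 1 FPKM. Dcn goes from 99.7 to 770.0 in the FLAG pair and from 106 to 9.60 in the hairpin pair, Omd is higher in the CACUL1 line of each pair, and Ogn and Fmod differ most between the controls.

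Counted together, 4 of the 7 genes (Ogn, Dcn, Bgn and Omd) were at least 2-fold higher in FLAG-CACUL1 than in FLAG and none was 2-fold lower. Over all genes 7.51% were called higher and 7.22% lower, and the median log2 fold change was 1.28 for the members and 0.09 for all genes. Bgn and Omd, at 1.29 and 1.28, were the members nearest to the 2-fold line from above, and Aspn, at 0.76, the nearest from below.

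In the depletion comparison 5 of the 7 (Ogn, Dcn, Fmod, Aspn and Lum) were at least 2-fold lower in sh-CACUL1 and none was 2-fold higher, where 16.4% of all genes were called lower and 4.94% higher. The median was -1.71 for the members and -0.30 for all genes. The all-gene median itself moved with scaling, to -0.01 after quantile normalization and -0.00199 after median-of-ratios scaling, and the split of 647 genes higher and 2141 lower became 1178 and 1084, and 1186 and 1016. Set against the all-gene median, the changes of the same 5 members were between -1.18 for Lum and -4.99 for Ogn, that of Bgn was -0.27 and that of Omd was 1.12. In the overexpression comparison rescaling changed the split from 983 higher and 945 lower to 831 and 1020, and 736 and 1187. In these 2 comparisons no member changed direction under either rescaling.

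**Figure D2:**
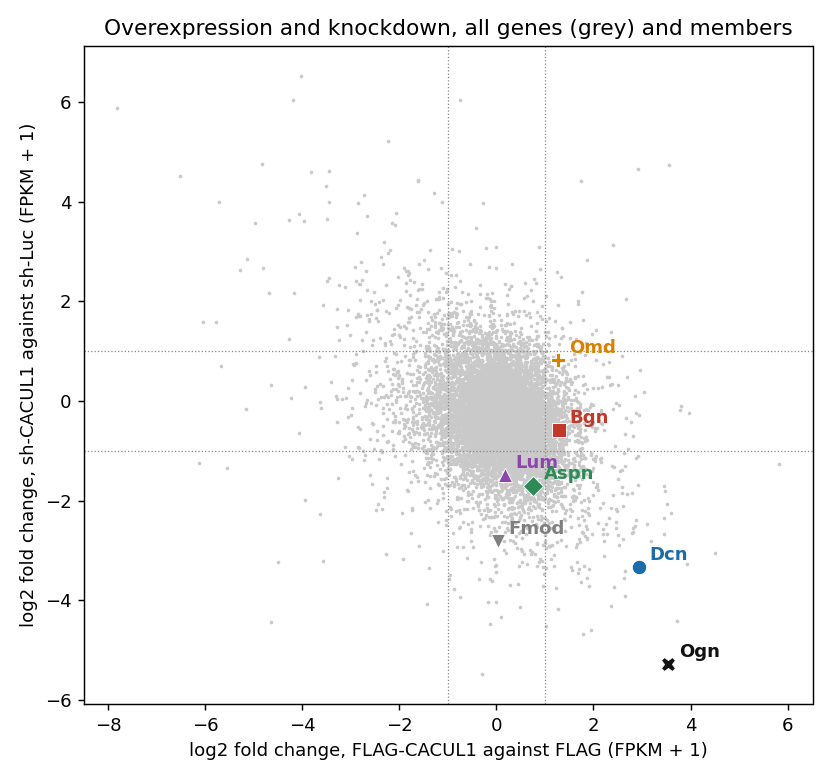
Log2 fold change of FPKM + 1 in FLAG-CACUL1 against FLAG (x axis) and in sh-CACUL1 against sh-Luc (y axis), with a grey point for each of the 13085 genes, a coloured symbol for each member and dotted lines at 2-fold. Dcn (2.94 and -3.33) and Ogn (3.53 and -5.29) lie at the lower right edge of all genes, Lum and Fmod near 0 on the x axis, and Omd above 0 on both axes.

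The controls differed from each other in most of these genes. In FLAG against sh-Luc 4 members (Ogn, Aspn, Fmod and Omd) were at least 2-fold lower and 1 (Lum) at least 2-fold higher, where 12.4% of all genes were called lower and 8.58% higher. The median was -1.13 for the members and -0.18 for all genes. Only Dcn, at -0.08, and Bgn, at 0.47, were within 2-fold. After quantile normalization and median-of-ratios scaling the split of all genes, 1123 higher and 1627 lower as deposited, became 1345 and 1143, and 1574 and 931, the all-gene median became -0.07 and -0.00183, and Omd was then within 2-fold. The 2 control lines differ in vector, in selection drug and as lines, which cannot be told apart here.

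Which control was used decided the direction for Aspn and Ogn. Against sh-Luc in place of FLAG, FLAG-CACUL1 gave 2.85 for Dcn, 1.76 for Bgn and 1.22 for Lum on the log2 scale, and Omd gave 0.15. Aspn and Ogn changed sign, to -2.34 and -3.36. Fmod, with 3.32 estimated fragments in FLAG-CACUL1, was at -2.87. The counts became 3 higher and 3 lower, where 5.04% and 4.87% of all genes were called, 9.90% in either direction.

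For sh-CACUL1 against FLAG in place of sh-Luc, Dcn stood at -3.25, Lum at -2.53 and Bgn at -1.05, and Omd at 1.95. Aspn and Ogn became higher in the depleted cells, by 1.39 and 1.60, and Fmod had 2.21 and 5.52 estimated fragments in FLAG and sh-CACUL1, too few for a fold. The counts were again 3 higher and 3 lower, where 7.45% and 15.4% of all genes were called. Dcn was the member whose change was nearly the same with either control in both comparisons, with ratios of 7.73 and 7.28 for overexpression and levels 11.01-fold and 10.4-fold lower for depletion.

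**Figure D3:**
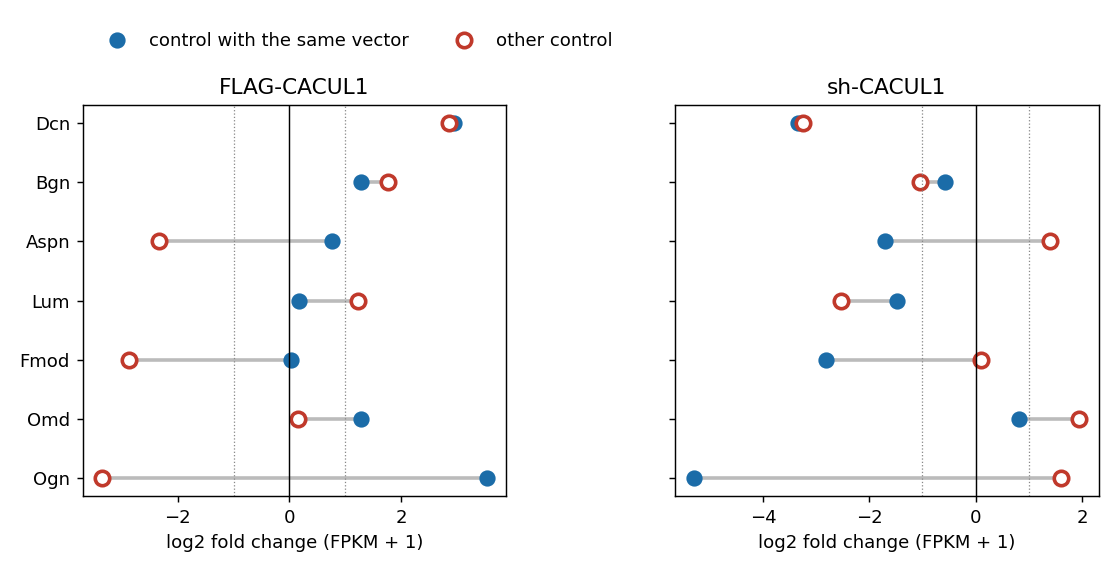
Log2 fold change of FPKM + 1 of each member in FLAG-CACUL1 (left) and sh-CACUL1 (right), against the control with the same vector (filled) and the other control (open), with a grey bar joining the pair. The pair nearly coincides for Dcn, and the symbols lie on opposite sides of 0 for Aspn and Ogn in both panels. The Fmod symbols near 0 rest on 2.21 to 5.52 estimated fragments in each sample.

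As a pool, the 7 mRNAs made up 0.399% of all FPKM in FLAG cells, 1.07% in FLAG-CACUL1 cells, 0.525% in sh-Luc cells and 0.275% in sh-CACUL1 cells. Their summed level was 2.70-fold higher with overexpression and 2.13-fold lower with depletion, and it was 1.16-fold lower in FLAG than in sh-Luc. The sum mostly followed Bgn, which held 90.5% of it in FLAG cells, 81.8% in FLAG-CACUL1 cells, 56.2% in sh-Luc cells and 80.3% in sh-CACUL1 cells. In sh-Luc the rest was largely Aspn with 26.1% and Ogn with 12.1%. Dcn held 5.30%, 15.2%, 4.84% and 0.938%, in the order FLAG, FLAG-CACUL1, then sh-Luc, then sh-CACUL1.

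Ratios within a sample show how the make-up differed. They do not change when a sample is scaled by 1 factor, as in median-of-ratios scaling, but quantile normalization can change them. The Bgn to Dcn ratio was 17.1 in FLAG cells, 5.40 in FLAG-CACUL1 cells, 11.6 in sh-Luc cells and 85.7 in sh-CACUL1 cells, so decorin was nearest to biglycan in the overexpressing cells and farthest from it in the depleted cells. For the neighbours Ogn and Omd the ratio was 0.567, 3.71, 44.5 and 0.513 in the same order, with Omd the higher of the pair in FLAG and sh-CACUL1. Relative to Col1a1, the main chain of collagen I, Bgn stood at 0.706, 1.71, 1.12 and 5.26, since Bgn was less reduced in sh-CACUL1 than the collagen. Relative to Col1a2 it stood at 1.12, 1.22, 0.879 and 2.73, and relative to Col3a1 at 0.790, 1.07, 0.653 and 2.25. The sh-CACUL1 line was highest with each chain, whereas the order of the controls differed between Col1a1 and the other chains.

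**Figure D4:**
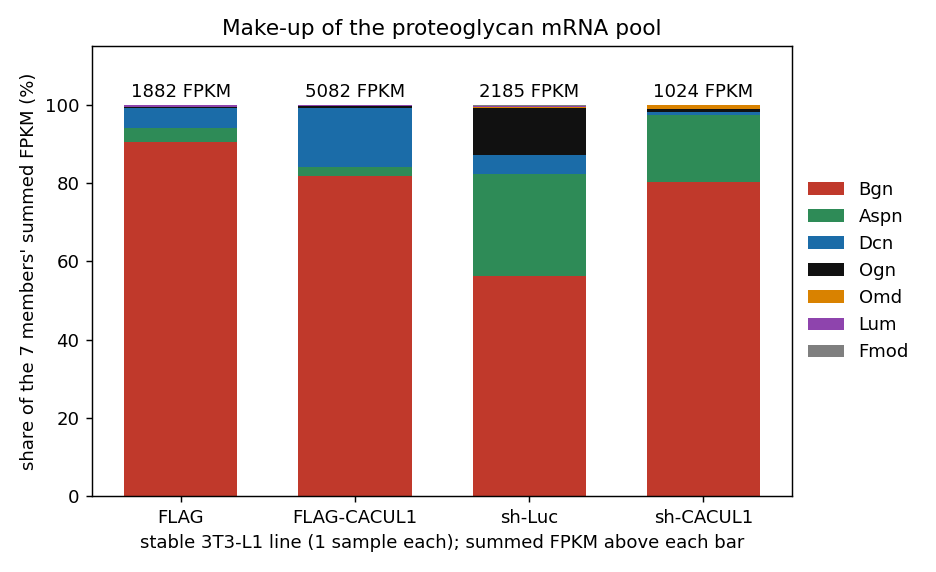
Share (%) of each member in the summed FPKM of the 7 proteoglycan mRNAs, with 1 stacked bar per line and the sum above it (1882, 5082, 2185 and 1024 FPKM). Bgn fills 56.2 to 90.5% of every bar, and Aspn and Ogn are widest in sh-Luc.

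Genes that share a locus differed in how alike their patterns were. On chromosome 13 the Euclidean distance between the centred log2(FPKM + 1) profiles over the 4 samples was 4.87 for Omd and Ogn, 3.26 for Aspn and Ogn and 2.07 for Aspn and Omd. With a pseudocount of 1 FPKM the nearest pair of all was Aspn and Fmod, at 1.01, on different chromosomes. Bgn and Lum followed at 1.12, and the farthest pair was Dcn and Ogn at 5.72. The pseudocount compresses Fmod, which was 139-fold apart between the controls, where Aspn was 8.69-fold apart. The low Fmod values rest on 2.21 to 5.52 estimated fragments, and no distance was computed with another pseudocount. Dcn and Lum, neighbours on chromosome 10, were 2.63 apart. Ecm2, the family member 11654 bases from Aspn, had 0.154 FPKM in FLAG cells, 0.293 in FLAG-CACUL1 cells, 1.00 in sh-Luc cells and 0.409 in sh-CACUL1 cells, the same order of lines as Aspn. Its values in FLAG, FLAG-CACUL1 and sh-CACUL1 stood for only about 8.00, 15.0 and 22.0 estimated fragments. Fmod, on chromosome 1, had this order of lines too.

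Cenpp, a centromere protein gene, runs across Aspn, Omd and Ogn on the other strand. It was at 2.43, 1.15, 1.62 and 1.44 FPKM in the same order of lines, and it shared 7 of the 2354 exon bases of Aspn and none of those of Omd and Ogn. Nol8, 28577 bases from Ogn, was at 2.45, 4.91, 6.62 and 4.48 FPKM, with log2 fold changes of 0.78 and -0.48. Iars, the next gene, had changes of -0.38 and -0.79. Beside Bgn, Haus7 had 0.48 and 1.07, and beside Fmod, Btg2 had -1.35 and -0.89. None of these 5 neighbours was at least 2-fold apart in the direction of its member in either comparison.

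Of 11 further genes of the proteoglycan family, 8 were listed and 4 of these (Prelp, Podnl1, Tsku and Ecm2) reached 1 FPKM in a sample. Prelp, a class II relative found in connective tissue, stood at 17.5 FPKM in FLAG cells, 54.6 in FLAG-CACUL1 cells, 32.6 in sh-Luc cells and 25.5 in sh-CACUL1 cells. It was 3.11-fold higher with overexpression (1.59 on the log2 scale) and had -0.34 with depletion. Tsku (tsukushi), a secreted inhibitor of growth factors, had 56.8, 39.0, 12.9 and 21.4 FPKM in the same order, which gave -0.53 and 0.69. Podnl1 had 3.44, 1.12, 2.42 and 0.699 FPKM and was at least 2-fold lower in both comparisons, at -1.06 and -1.01. Epyc, Nyx, Chad and Podn stayed under 1 FPKM in all 4 samples, and Kera, Optc and Chadl were not listed. The 8 genes had a median of 0.14 with overexpression, with 1 higher and 1 lower, and of -0.10 with depletion, with 1 lower. Over all genes the medians were 0.09 and -0.30. The all-gene shares were 7.51% higher and 7.22% lower with overexpression, and 4.94% higher and 16.4% lower with depletion.

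The glycosaminoglycan chains of decorin and biglycan are built by a series of enzymes. Of 27 genes for the linkage sugars and for chondroitin and dermatan sulfate, 22 were listed. In the depletion comparison 7 were at least 2-fold lower and none higher, with a median of -0.79 against -0.30 for all genes. Among all genes 16.4% were called lower and 4.94% higher with depletion, and 7.51% higher and 7.22% lower with overexpression. These shares apply to each list below as well. Rescaling cut the genes called lower with depletion from 2141 to 1084 or 1016, and the lists were not recounted after it. Csgalnact1, which starts the chondroitin chain, was at 10.4 FPKM in sh-Luc and 1.50 in sh-CACUL1 (-2.19 on the log2 scale). Dse, the epimerase that turns chondroitin into dermatan sulfate, was at 24.3 and 5.51 (-1.96), and Ust, a sulfotransferase, at 9.30 and 1.39 (-2.11). In the overexpression comparison 2 were higher and 4 lower, with a median of 0.10. There Chpf, a chondroitin polymerizing factor, was at 41.5 FPKM in FLAG and 114 in FLAG-CACUL1 (1.44), whereas Ugdh, which makes the precursor UDP-glucuronate, was at 145 and 58.3 (-1.30), and the sulfate transporter Slc26a2 at 10.8 and 3.10 (-1.53).

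For keratan sulfate, the chain of lumican and fibromodulin, 9 of 12 synthesis genes were listed. With depletion 6 were at least 2-fold lower and none higher, with a median of -1.38. Chst2, a sulfotransferase, was at 10.8 FPKM in sh-Luc and 1.08 in the depleted cells (-2.51). The galactosyltransferases B4galt4 and B4galt1 gave -1.97 and -1.65. Overexpression gave 1 higher, B4galt4 (1.09), and 1 lower, the sialyltransferase St3gal3 (-1.17), with a median of 0.21.

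Collagens, the main partners of these proteoglycans in the matrix, showed a difference in the depletion comparison as well. Of 12 listed genes out of 13, 7 were at least 2-fold lower in sh-CACUL1 and none higher, with a median of -1.31. Col1a1 was at 2412 FPKM in FLAG cells, 2424 in FLAG-CACUL1 cells, 1095 in sh-Luc cells and 156 in sh-CACUL1 cells, so that it differed by 0.01 with overexpression and by -2.80 with depletion. Col3a1 had 0.85 and -2.36, and Col11a1, a minor fibrillar chain, 0.56 and -2.39. Overexpression gave 1 higher gene, Col1a2 (1.16), and 2 lower, Col5a3 (-2.84) and Col12a1 (-3.28). The list median there was -0.00176.

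Proteases that cut the proteoglycans or their collagens mostly differed in opposite directions in the 2 comparisons. Counted with them were Pcolce (log2 fold changes of 0.997 and -2.35) and Pcolce2 (1.80 and -2.38), which enhance the protease Bmp1 and are not proteases. Of 13 listed genes out of 15, 8 were at least 2-fold higher with overexpression and none lower, with a median of 1.79, and 10 were lower with depletion and none higher, with a median of -2.06. Mmp13, a collagenase, was at 7.96 FPKM in FLAG and 123 in FLAG-CACUL1 (3.79), and Ctsk, a lysosomal protease that cuts collagen, at 28.7 and 337 (3.51). Mmp2, a gelatinase, had 324, 1624, 1504 and 293 FPKM in the order FLAG, FLAG-CACUL1, then sh-Luc, then sh-CACUL1. Mmp3, a stromelysin that can degrade decorin, had 104, 487, 22.1 and 1.68, the order of lines of Bgn and Lum. Mmp14 gave 1.97 and -2.68 and Adamts5, an aggrecanase, 1.79 and -2.66. Bmp1, the procollagen C-proteinase that also trims the propeptides of class I and class III members, gave 1.17 and -1.09. With the other control the counts were 3 higher and 2 lower for FLAG-CACUL1 and 0 higher and 5 lower for sh-CACUL1.

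Receptors and growth factors bound by these proteoglycans gave 17 listed genes out of 23. With overexpression 3 were at least 2-fold higher and 1 lower, with a median of 0.38, and with depletion 1 was higher and 9 lower, with a median of -1.003. Tlr2, a receptor for free biglycan, was at 24.4 FPKM in FLAG cells, 81.2 in FLAG-CACUL1 cells, 11.9 in sh-Luc cells and 1.30 in sh-CACUL1 cells, which gave 1.70 and -2.48, in the same order of lines as Bgn. Its partner Cd14 gave 1.43 and 0.16. Lrp1, the receptor that takes up decorin, was at 143, 328, 145 and 23.7 FPKM, which gave 1.19 and -2.57, and Itgb1, an integrin chain, gave 0.42 and -2.04. Tgfb1, the growth factor that decorin can sequester, was at 58.7, 44.6, 20.7 and 6.38 FPKM. Egfr, another decorin partner, went the other way, with -1.10 and 1.46.

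Of 27 other proteoglycan genes 17 were listed. With overexpression 2 were at least 2-fold higher (Vcan and Sdc2) and 3 lower, with a median of -0.02, and with depletion 9 were lower and none higher, with a median of -1.30. Among the cell-surface proteoglycans Gpc1 gave -3.07, Gpc4 -2.68, Gpc6 -2.36, Sdc2 -2.24 and Sdc3 -2.20 with depletion, and Agrn, of basement membranes, -2.43. Sdc3, Sdc4 and Prg4 (lubricin) were the genes at least 2-fold lower with overexpression, at -2.48, -2.01 and -1.71.

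**Figure D5:**
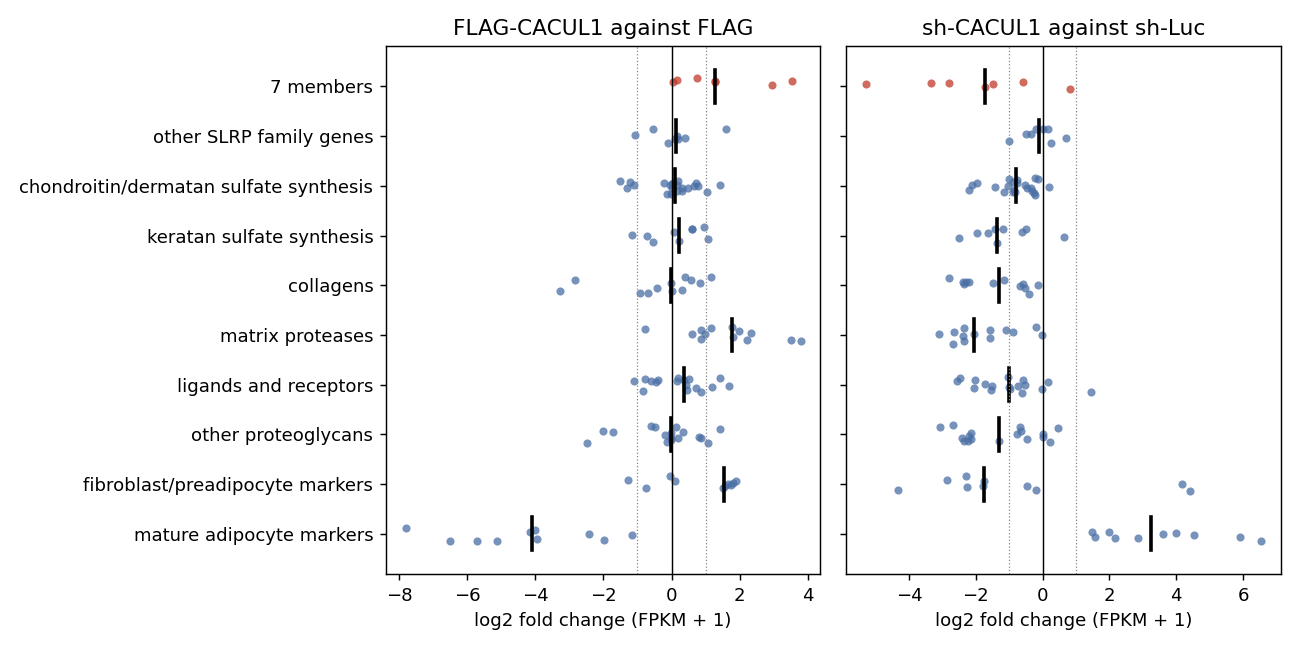
Log2 fold change of FPKM + 1 of every listed gene in each group, in FLAG-CACUL1 against FLAG (left) and sh-CACUL1 against sh-Luc (right), with 1 point per gene, a black bar at the median and dotted lines at 2-fold. The medians are 1.28 and -1.71 for the 7 members (red), 1.79 and -2.06 for the matrix proteases (counted with Pcolce and Pcolce2) and -4.09 and 3.24 for the adipocyte markers.

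Markers of the state of the cells differed alongside these genes. The labels call the cells preadipocytes, and on day 8 all 10 listed markers of mature fat cells were called lower with overexpression and higher with depletion, with medians of -4.09 and 3.24 on the log2 scale. With the other control 5 were lower and none higher in FLAG-CACUL1 (median -1.17), and 3 were higher and 2 lower in sh-CACUL1 (median 0.00379). Their summed level was 10352 FPKM in FLAG cells, 903 in FLAG-CACUL1 cells, 1724 in sh-Luc cells and 18483 in sh-CACUL1 cells, none of the 10 was at 0 in a sample, and Lep was not listed. Fabp4, a fatty acid carrier, was at 4991, 320.4, 1020.1 and 12543 FPKM, Lpl at 1143, 512, 357 and 1060.3, and Scd1 at 1914, 19.9, 36.3 and 857. The control FLAG line thus held more fat cell mRNA than the control sh-Luc line, and 9 of the 10 markers were at least 2-fold higher in FLAG. The part of this difference in the levels of the 7 proteoglycan genes was not tested.

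Of 10 listed fibroblast and preadipocyte markers out of 11, 6 were at least 2-fold higher and 1 lower with overexpression, with a median of 1.54. With depletion 2 were higher and 6 lower, with a median of -1.76. Against the other control, 3 were higher and 1 lower in FLAG-CACUL1 (median 0.19), and 0 higher and 5 lower in sh-CACUL1 (median -1.25). The 10 markers summed to 4274 FPKM in FLAG cells, 5451 in FLAG-CACUL1 cells, 5771 in sh-Luc cells and 1284 in sh-CACUL1 cells. Fn1 (fibronectin) was at 928, 986, 745 and 35.8 FPKM, S100a4 at 474, 1761, 2682 and 564, and Vim (vimentin) at 2368, 1394, 1421 and 421. Thy1 and Dlk1 were the exceptions in the depletion comparison, at 4.41 and 4.19, and in sh-Luc they were at 0.663 and 0.220 FPKM.

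Markers of other cell types that make these proteoglycans were few. Of 10 bone markers 4 were listed, and Sp7, Bglap, Ibsp, Dmp1, Mepe and Sost were not. The summed levels were 162, 178, 61.2 and 9.88 FPKM in the order FLAG, FLAG-CACUL1, then sh-Luc, then sh-CACUL1. Spp1 (osteopontin) held most of each sum, at 148, 171, 51.2 and 5.29, and Runx2 was at 3.69 in sh-CACUL1. Omd thus differed in the opposite direction to this sum in the depletion comparison, and to Spp1 (-3.05 on the log2 scale) and Runx2 (-1.13). Alpl, at 0.373 FPKM in sh-Luc and 0.757 in sh-CACUL1 (0.36), was higher with depletion, as Omd was. For cartilage 2 of 8 were listed (Sox9 and Comp, in sum 6.12, 16.7, 22.6 and 7.95), and Col2a1 and Acan were not. Tendon markers gave 2 of 5 (Mkx and Egr1, in sum 5.93, 10.0, 66.7 and 29.95), without Scx and Tnmd. Most of the difference was Egr1, at 2.94, 5.19, 63.4 and 27.6, with Mkx at 2.99, 4.82, 3.28 and 2.39. Smooth muscle gave 4 of 6, in sum 12.0, 29.9, 35.2 and 8.31. Acta2 led in FLAG-CACUL1 and sh-Luc (23.5 and 33.1) and Des in FLAG and sh-CACUL1 (8.35 and 4.04). Macrophage markers gave 3 of 6, without Ptprc and Adgre1, with 17.0 FPKM in FLAG and 1.09 to 1.87 elsewhere, most of it Cd68. The 2 listed of 5 endothelial markers summed to at most 0.931. Their part in the levels of the members was not tested.

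For each member the 3 genes with the nearest profile were looked up among 6892 genes with at least 10 FPKM in a sample, by the distance over 4 samples defined above. Lum had close matches, with Procr at 0.0779, Irx1 at 0.109 and Ccdc80, a secreted protein of fat tissue, at 0.126. Ccdc80 was at 95.4 FPKM in FLAG cells, 112 in FLAG-CACUL1 cells, 42.7 in sh-Luc cells and 16.4 in sh-CACUL1 cells. Dcn and Ogn, with the widest ranges of the members detected in all lines, had their nearest genes farther away. Nearest to Dcn were Mamdc2 (0.839), the chemokine Ccl7 (0.879) and Tlr2 (1.06), and nearest to Ogn were Itgbl1 (1.81), the lipid carrier Apod (1.82) and Gas1 (2.11). Ccl7 was at 91.5, 298, 62.4 and 5.14 FPKM, in the same order of lines as Bgn and Lum.

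Aspn and Fmod, both high in sh-Luc, each lay near genes with a peak there. Nearest to Fmod were the transcription factor Etv6 (0.0956), Tnfaip6 (0.424), which binds hyaluronan, and Col11a1 (0.524). These Fmod distances depend on the pseudocount of 1 FPKM, since outside sh-Luc Fmod rested on 2.21 to 5.52 estimated fragments. Etv6 was at 3.34 FPKM in FLAG and 29.1 in sh-Luc, where Fmod was at 0.0493 and 6.85. Nearest to Aspn were Pawr (0.327), Hmga1b (0.359) and Dusp6 (0.482). Bgn was nearest to Tmem176b (0.336), Grb14 (0.360) and Snhg18 (0.362). For Omd the named genes were 2810001G20Rik (0.158) and Eef1akmt1 (0.222), and a row without a symbol lay between them. With 4 points per profile, many genes lie near any given pattern.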

How the data were processed

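Total RNA of 4 stable 3T3-L1 lines was sequenced, with 1 sample per line. The authors deposited FPKM values in 13110 rows a sample, each row naming its RefSeq transcripts, and the build was mm10 per the labels. A company prepared and sequenced the libraries. The aligner, the program that computed FPKM and the strand setting are not given in the sources used here. FPKM divides by transcript length and depth but does not correct for a few abundant mRNAs taking up reads, so FPKM was also rescaled as an alternative.

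Rows were joined to symbols through GENCODE M21, with 196 rows left without a symbol, and rows of a symbol were summed to 13085 genes. Fold changes were computed as log2 ratios of the deposited FPKM with a pseudocount of 1 FPKM, no filter, and a call at 2-fold, the study's cut-off. No test was run and no p-value is given. Depth was estimated from FPKM multiplied by length among single-transcript rows no shorter than 3000 bases, where 73.5 to 78.8% of low values lay within 0.2 of a whole step.

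The members, gene lists and naming rule were chosen with earlier results of these data known. The rule names the members, the other family genes, Cacul1, neighbouring genes, up to 3 genes per list and comparison with the largest change past 2-fold and at least 1 FPKM, the 3 most abundant genes of each marker list, and the 3 genes with the nearest profile. Bmp1, Pcolce, Pcolce2, Tgfb1, Egfr, Vcan, Sdc2, Gpc6, Thy1 and Dlk1 were added after their values were seen. Alternatives were a pseudocount of 0.1 FPKM, no pseudocount, quantile normalization, median-of-ratios scaling, the row with the highest mean in place of the sum, at least 1 FPKM in any or in all 4 samples, a 3-fold cut-off and the other control.

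Promoters were taken from RefSeq on GRCm38.p6, where 5 of the 7 members matched. Protein features were not analysed here. Scripts were tested on simulated data and used Python 3.11.15, numpy 2.4.6, scipy 1.17.1, pandas 2.3.3 and matplotlib 3.10.9.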

Additional observations from a re-analysis of the deposited data

How the results depend on the processing

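In the overexpression and depletion comparisons no member changed direction with another pseudocount, rescaling or row choice, whereas the other control turned Aspn and Ogn, and the sign of Fmod also changed, from values that rest on few fragments. In FLAG against sh-Luc, Dcn went from -0.08 to 0.21 with median-of-ratios scaling, within 2-fold in both. Against the other control, FLAG-CACUL1 gave 3 members higher and 3 lower and sh-CACUL1 also 3 and 3, with log2 fold changes (overexpression, then depletion) of -2.34 and 1.39 for Aspn, -2.87 and 0.0919 for Fmod, and -3.36 and 1.60 for Ogn. Of the 37 other genes run under each alternative, those past 2-fold with at least 1 control that turned in both comparisons were Tsku (1.53 and -1.37), Adamts5 (-1.45 and 0.58), Col11a1 (-2.18 and 0.35) and Prg4 (1.52 and -3.03). B4galt4 (-0.31), Chst2 (-1.61), Col12a1 (0.14), Mmp14 (-0.31), Sdc3 (0.20), Sdc4 (0.75) and Ugdh (0.46) turned with overexpression alone, and Cd14 (-1.83) with depletion alone. Genes outside those 37 turned too, among them Egfr (1.42 and -1.06), Dlk1 (5.05 and -2.14), S100a4 (-0.61 and 0.25) and Lpl (0.52 and -0.11) in both comparisons, and Thy1 (-0.30) and Scd1 (-1.16) with depletion. At 3-fold, 2 members were higher with overexpression, 4 lower with depletion, and 0 higher in FLAG than in sh-Luc. Quantile normalization and median-of-ratios scaling each gave 1 member higher with depletion (Omd). The causes were not tested.

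Over all genes, no pseudocount gave 2192 higher and 1583 lower with overexpression and 1362 and 3437 with depletion, and a pseudocount of 0.1 FPKM gave 1786 and 1375, and 1085 and 3078. The 3-fold cut-off gave 283 and 380, and 252 and 684. With at least 1 FPKM in all 4 samples 6 members were left, Fmod being dropped, with 4 higher and 4 lower, respectively. No paired analysis was possible because each group has 1 sample, and for the same reason no sample could be left out. Depth limits Fmod most, at 2.21 to 5.52 estimated fragments in 3 lines.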
